A study of Mus musculus with 4 samples.

Results

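The skeletal muscle genes described here were 10 named genes: the regulators Pax7, Myf5, Myod1 and Myog, the contractile genes Myh3, Myh8, Myl1, Tnnt1 and Acta1, and the muscle deaminase gene Apobec2. They were found through the accession that the array gives for each probe, matched to RefSeq gene symbols. Of the 10 genes, 9 had a probe, with 10 probes and 37 spots on each array. The arrays named 16995 genes in all. Myh3, the embryonic myosin heavy chain, had no probe that matched, so the myosin heavy chain measured here was Myh8, the perinatal one.

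Total RNA came from ICR mouse embryos at E11.5, where the day of the vaginal plug was E0.5. Primordia of esophagus, lung, stomach and intestine were each measured on 1 one-colour Agilent array. The labels name no treatment or mutation of the embryos, and no embryo number, sex or pooling. With 1 array per organ there was no replicate and no test, so every fold below is a description of 4 arrays. The 4 arrays shared 1 slide. The extraction text of every sample speaks of stomach, and the organ was taken from the titles and tissue labels.

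Skeletal muscle forms in a known sequence. Progenitors that carry Pax7 switch on the basic helix-loop-helix factors Myf5 and Myod1, committed myoblasts switch on Myog, and Myog and its partners then bind E-boxes, short CANNTG sites, at genes of the contractile apparatus. Most trunk muscle arises from somites and head muscle from branchiomeric mesoderm. In the mouse, the outer muscle of the esophagus is smooth muscle at first and is known to become striated later in fetal and early postnatal life, from cells that carry branchiomeric regulators.

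The promoters of 4 members are shown because these genes were high together on the esophagus array and differ in the motifs they carry. Each covers 250 bases before to 50 bases after the start in the RefSeq promoter table of GRCm38.p6, which is not the build of the array design. Capitals mark matches on either strand to the E-box (CANNTG), the MEF2 box, the CArG box and TATAAA. Myog is at chr1:134289754-134290053 on the plus strand, Myh8 at chr11:67276874-67277173 on the plus strand, Apobec2 at chr17:48432679-48432978 on the minus strand and Acta1 at chr8:123894726-123895025 on the minus strand.
Myog: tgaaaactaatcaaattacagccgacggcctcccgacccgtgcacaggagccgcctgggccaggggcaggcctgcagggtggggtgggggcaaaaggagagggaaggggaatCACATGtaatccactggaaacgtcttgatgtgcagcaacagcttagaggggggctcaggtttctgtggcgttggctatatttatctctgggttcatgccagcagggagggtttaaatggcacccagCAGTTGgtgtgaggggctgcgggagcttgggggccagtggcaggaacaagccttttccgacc
Myh8: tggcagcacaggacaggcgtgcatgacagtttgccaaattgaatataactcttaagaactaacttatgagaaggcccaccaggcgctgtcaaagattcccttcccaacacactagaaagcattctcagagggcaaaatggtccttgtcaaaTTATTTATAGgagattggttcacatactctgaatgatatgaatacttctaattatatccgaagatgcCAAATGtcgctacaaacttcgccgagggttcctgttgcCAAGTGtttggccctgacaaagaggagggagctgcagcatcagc
Apobec2: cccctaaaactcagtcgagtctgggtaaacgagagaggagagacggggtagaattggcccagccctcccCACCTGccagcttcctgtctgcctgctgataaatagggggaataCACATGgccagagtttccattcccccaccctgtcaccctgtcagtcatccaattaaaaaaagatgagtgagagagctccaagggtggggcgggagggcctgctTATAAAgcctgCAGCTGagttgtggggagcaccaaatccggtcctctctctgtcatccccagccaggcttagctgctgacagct
Acta1: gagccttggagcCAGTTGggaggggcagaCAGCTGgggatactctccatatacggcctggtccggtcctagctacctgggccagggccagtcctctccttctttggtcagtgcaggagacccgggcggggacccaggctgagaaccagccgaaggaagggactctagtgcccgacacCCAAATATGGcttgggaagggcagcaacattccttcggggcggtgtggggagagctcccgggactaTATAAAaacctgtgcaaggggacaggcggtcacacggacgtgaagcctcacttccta
In Myh8 the MEF2 box holds TATAAA on the other strand, so these capitals form 1 block.

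A level below is log2 of the scanner's processed signal minus the 75th percentile of that array, so that 0 stands for that percentile itself. A spot was counted as seen where the scanner called it well above background. Where an array did not see a gene, the lowest level it did call well above background stood in for the gene, unless the gene's own value was higher, and the fold is then "at least" the number given. Levels of different probes were not compared with each other. Where a value turned on how background was handled, it is also given under normexp correction with an offset of 50, which by construction narrows the differences of dim probes. In bulk RNA, fewer cells of a type and less RNA per cell cannot be told apart.

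The arrays differed in depth of signal. On the esophagus array 69.3% of spots were well above background, on the lung array 39.0%, on the stomach array 67.9% and on the intestine array 74.0%. The 75th percentile of the processed signal was 379 for esophagus, 32.035 for lung, 320.2 for stomach and 991 for intestine. The lowest level well above background was accordingly −5.75 for esophagus, −2.39 for lung, −5.78 for stomach and −6.92 for intestine, so the lung array could not resolve dim genes that the others could. The tissue markers followed the labels. Nkx2-1, a lung and thyroid factor, was highest in lung at 2.47. Barx1, a stomach mesenchyme factor, was highest in stomach at 4.49. Cdx2, an intestinal factor, was highest in intestine at 1.90, and Sox2, a foregut factor, was 1.09 in esophagus and 0.63 in stomach. Nkx2-1 was also well above background in esophagus, at −1.10.

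Of the 9 members with a probe, 8 were well above background on the esophagus array, 3 on the lung array, 8 on the stomach array and 7 on the intestine array. Of all 16995 named genes, 13278, 9524, 13374 and 14271 were, in the same order. All 8 that were seen anywhere were highest in esophagus among the organs where they were seen. How many of all genes were highest in esophagus was not counted. Only Tnnt1 and Apobec2 were seen on all 4 arrays. Myf5 was seen on none.

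**Figure D1:**
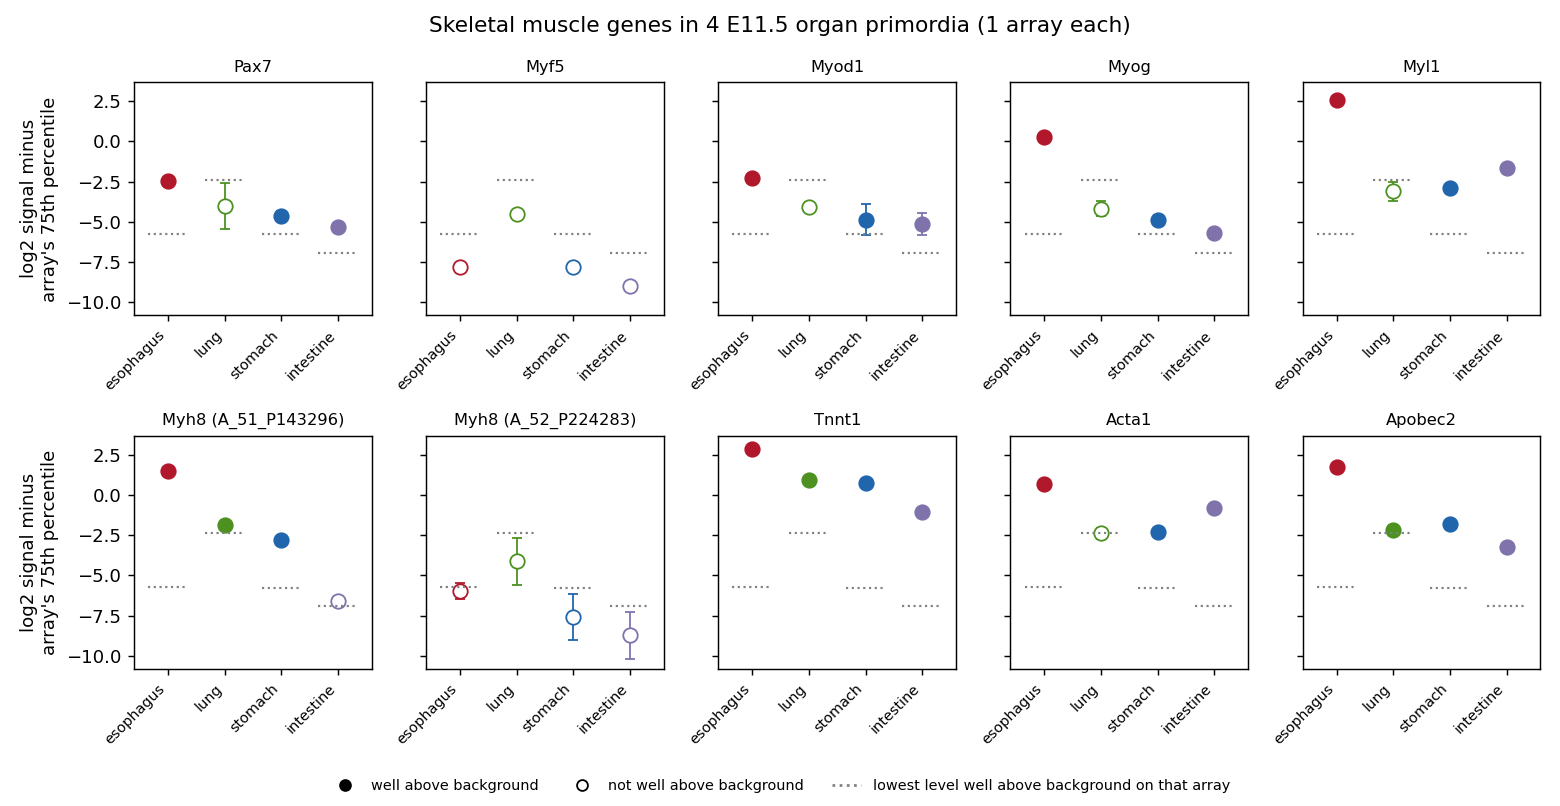
Level of each probe of the skeletal muscle genes on the 4 arrays, in log2 units relative to each array's 75th percentile of processed signal. Filled circles are well above background and open circles are not, bars are the SD over copies of the probe or the scanner's error of a single spot, and dotted lines mark the lowest level well above background. Among filled circles the esophagus is the highest in every panel that has one.

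Pax7, the paired-box factor of muscle progenitors, which also marks neural crest and dorsal neural tube, had a level of −2.50 in esophagus, −4.62 in stomach and −5.34 in intestine. In lung it was not well above background, at −4.02. The esophagus was thus the high array, 4.34-fold over stomach and 7.14-fold over intestine. Under normexp the log2 difference over stomach was 0.65 in place of 2.12, which is under 2-fold, and over intestine 1.82 in place of 2.84. No fold over lung could be given, because the esophagus level itself lay below the lowest level that the lung array resolved.

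Myf5, the factor that commits muscle precursors early, was printed in 10 copies and none was well above background on any array. Its raw signals ran between 1.39 and 2.27 in esophagus over 10 spots, 1.23 and 1.63 in lung over 7, 1.17 and 1.79 in stomach over 10, and 1.61 and 2.45 in intestine over 10. These signals stayed below the scanner's call on all 4 arrays, so Myf5 has no order of organs and no fold. The higher scaled value of the lung array, −4.52, comes from its low 75th percentile.

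Myod1, the other factor of early commitment, was also printed in 10 copies. Its level was −2.31 ± 0.17 in esophagus (SD over 8 spots), −4.88 ± 0.97 in stomach (10 spots, 9 of them well above background) and −5.17 ± 0.68 in intestine (10 spots). None of the 10 lung spots was well above background. The lowest raw esophagus spot, 65.6, lay above the highest stomach spot, 21.5. Esophagus was 5.94-fold over stomach and 7.25-fold over intestine, while its fold over lung was bounded only at 1.06 or more. Under normexp the log2 difference over stomach was 0.62 in place of 2.57, which is under 2-fold, and over intestine 1.74 in place of 2.86. With every array held to the lung array's lowest level, both were bounded only at 0.08 or more. Stomach and intestine differed by less than 2 errors of their spots.

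Myog, which drives myoblasts into terminal differentiation, had the highest folds of the regulators. Its level was 0.28 ± 0.10 in esophagus (SD over 10 spots), −4.91 ± 0.30 in stomach (9 spots) and −5.68 ± 0.31 in intestine (9 spots). None of its 10 lung spots was well above background. Before scaling, the esophagus spots read 410 to 518, the stomach spots 7.29 to 13.8 and the intestine spots 13.1 to 27.3, so the esophagus range lay clear of both others, while those of stomach and intestine overlapped. The esophagus was 36.6-fold over stomach, 62.2-fold over intestine and at least 6.40-fold over lung. On the log2 scale these are 5.19, 5.96 and at least 2.68, and under normexp they were 2.73, 3.96 and 0.89, the last of which is under 2-fold. With every array held to the lung array's lowest level, the differences over stomach and intestine were both at least 2.68. Spots on 1 array share 1 RNA sample, so these errors are technical and say nothing of the spread between embryos.

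**Figure D2:**
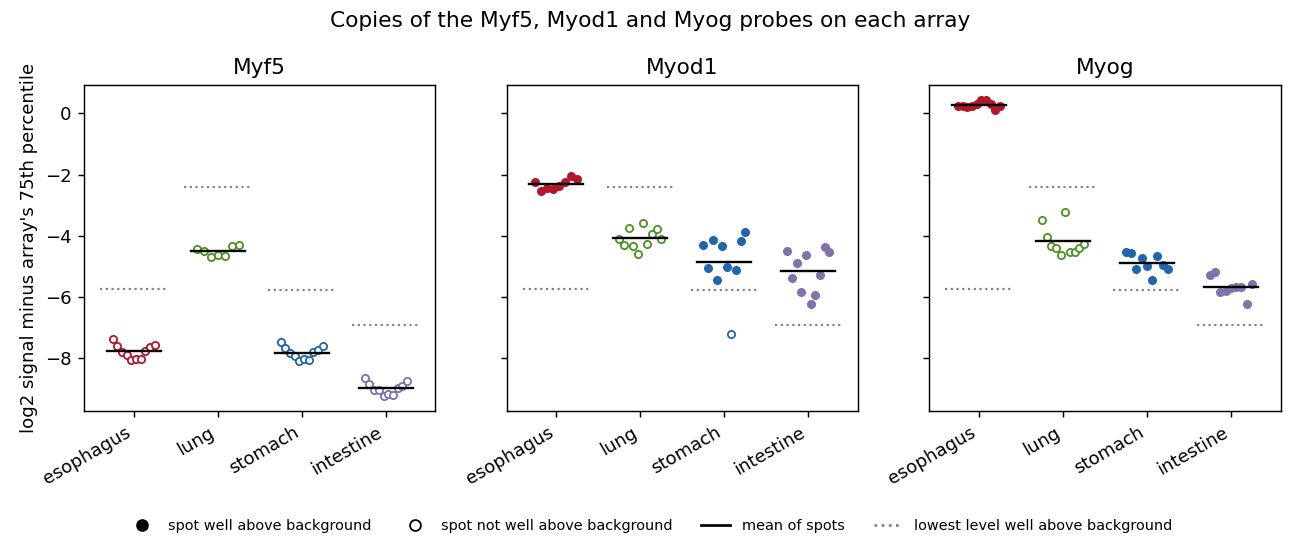
Level of every spot of the Myf5, Myod1 and Myog probes on the 4 arrays, in log2 units relative to each array's 75th percentile of processed signal. Filled circles are spots well above background, open circles are not, bars are means over spots and dotted lines the lowest level well above background. The esophagus spots of Myog and Myod1 lie above all their stomach and intestine spots, and no Myf5 spot is filled.

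The contractile members had higher folds in several cases, each from 1 spot per array. Myl1, an alkali light chain of fast skeletal myosin, had a level of 2.56 in esophagus, −3.12 in lung, −2.89 in stomach and −1.68 in intestine, and the lung spot was not well above background. Esophagus was 43.7-fold over stomach, 19.0-fold over intestine and at least 31.1-fold over lung. Under normexp the log2 difference was 4.16 in place of 5.45 over stomach and 2.82 in place of at least 4.96 over lung. Stomach was below intestine, by 2.30-fold.

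Myh8 had 2 probes, and they disagreed. The probe A_51_P143296 had a level of 1.46 in esophagus, −1.86 in lung and −2.83 in stomach, and was not well above background in intestine, at −6.59. On this probe esophagus was 9.95-fold over lung, 19.5-fold over stomach and at least 265-fold over intestine. The probe A_52_P224283 was not well above background on any array, at −5.99 in esophagus, −4.14 in lung, −7.57 in stomach and −8.73 in intestine. The brighter probe was used, with log2 differences of 3.31 over lung, 4.29 over stomach and at least 8.05 over intestine. With the mean of both probes these were 0.73, 2.93 and 4.66, and the first is under 2-fold. Under normexp they were 1.68, 3.09 and 5.03. With every array held to the lung array's lowest level, the difference over intestine was bounded only at 3.85 or more. Skeletal myosin heavy chain genes are close copies of one another, and whether either probe also reads a sister gene was not tested. Of the sister genes, Myh4 was well above background in esophagus alone, at 0.01, and at least 41.6-fold over stomach. Myh1 was −4.95 in esophagus and −4.13 in stomach, and Myh2 was seen on no array.

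Tnnt1, the slow skeletal troponin T that anchors the troponin complex on tropomyosin, was seen in every organ. Its level was 2.86 in esophagus, 0.95 in lung, 0.75 in stomach and −1.07 in intestine. Esophagus was 3.76-fold over lung, 4.31-fold over stomach and 15.2-fold over intestine, and lung and stomach lay within 2 spot errors of each other. Under median centring the log2 difference over lung was 1.32 in place of 1.91. The scanner flagged the local background of its esophagus spot as an outlier, and with such spots left out Tnnt1 has no esophagus value.

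Acta1, the skeletal alpha-actin of thin filaments, had the smallest fold over intestine of the 8. Its level was 0.67 in esophagus, −2.39 in lung, −2.32 in stomach and −0.82 in intestine, and the lung spot was not well above background. The esophagus was 7.92-fold over stomach, 2.79-fold over intestine and at least 8.29-fold over lung. Under normexp the log2 difference was 2.28 in place of 2.99 over stomach and 1.18 in place of at least 3.05 over lung. Under median centring the difference from intestine was 0.98 on the log2 scale, which is just short of 2-fold.

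Apobec2, a member of the cytidine deaminase family found in striated muscle, had a level of 1.71 in esophagus, −2.18 in lung, −1.84 in stomach and −3.26 in intestine. Esophagus exceeded every other organ, at 14.7-fold over lung, 11.7-fold over stomach and 31.3-fold over intestine. Under normexp the log2 difference was 2.11 in place of 3.88 over lung and 4.21 in place of 4.97 over intestine. Lung and stomach differed by less than 2 spot errors.

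Counted together, 6 of the 7 members with a fold were at least 2-fold higher in esophagus than in lung, against 9.42% of 10513 genes. Over stomach the count was 8 of 8, against 5.63% of 13732 genes. Over intestine it was again 8 of 8, against 11.9% of 13895 genes. The median log2 difference of the members was 3.05 over lung, 3.27 over stomach and 4.09 over intestine, and that of all genes −0.28, −0.16 and −0.13 in the same order. The member short of 2-fold over lung was Myod1, whose value there is a bound. Members were chosen with earlier results of these arrays known, so the counts describe them and are no test.

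At least 2-fold above every other organ in esophagus were 6 members, Myog, Myh8, Myl1, Tnnt1, Acta1 and Apobec2, where 1.12% of 14506 genes met that rule. At 4-fold the count was 4, Myog, Myh8, Myl1 and Apobec2, against 0.31% of genes. With the lung array left out, all 8 members that were seen were at least 2-fold above both stomach and intestine, against 3.97% of 14502 genes.

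The size of these differences can be set against how far 2 probes of 1 gene disagree. For esophagus minus stomach, 95% of 4618 genes with 2 bright probes disagreed by less than 1.04 on the log2 scale. On the levels used here all 8 members differed by more than that, from 2.11 for Tnnt1 to 5.45 for Myl1. The size was not computed under normexp, where Pax7 and Myod1 differed by 0.65 and 0.62. It covers only genes whose 2 probes were both well above background on both arrays, which leaves out the pair of Myh8. Spread between embryos is not part of it. For esophagus minus intestine the same bound was 2.27, and Acta1 at 1.48 was below it. For esophagus minus lung it was 2.62, and the bound of Myod1 at 0.08 and the difference of Tnnt1 at 1.91 were below it.

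Outside the esophagus the members did not share 1 order. Between stomach and intestine, 3 of 8 were at least 2-fold higher in stomach, against 7.52% of 13807 genes, and 2 were at least 2-fold lower, against 4.87%. Higher in stomach were Myh8, by at least 13.6-fold, Tnnt1, by 3.53-fold, and Apobec2, by 2.68-fold. Lower in stomach were Myl1, by 2.30-fold, and Acta1, by 2.84-fold. For stomach minus intestine, 95% of 4694 genes with 2 bright probes disagreed by less than 1.60 on the log2 scale. Apobec2 at 1.42, Myl1 at −1.20 and Acta1 at −1.50 were within that size, and Tnnt1 at 1.82 and the bound of Myh8 at 3.765 beyond it. The regulators differed by less than 2-fold between these organs, with stomach over intestine at 1.65-fold for Pax7, 1.22-fold for Myod1 and 1.70-fold for Myog. Against intestine, lung was higher for Myh8 by at least 26.6-fold, for Tnnt1 by 4.05-fold and for Apobec2 by 2.12-fold, and lower for Acta1 by at least 2.97-fold. For lung minus intestine the 95% size was 1.88. Apobec2 at 1.09 and the bound of Acta1 at −1.57 were within it, and Tnnt1 at 2.02 and the bound of Myh8 at 4.74 beyond it.

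Other genes of the muscle programme were grouped into lists by role, and the following counts are of genes at least 2-fold higher in esophagus than in stomach among those with a fold, where 5.63% of all genes were. Among progenitor and specification regulators the count was 3 of 8, with a median difference of 0.94. Over lung, where 9.42% of all genes were at least 2-fold higher in esophagus, it was 0 of 6, with a median difference of 0.06 against −0.28 for all genes. The same 9.42% and −0.28 apply to the counts and medians over lung of the lists below. Pax3, the factor of somitic and migrating muscle precursors, was well above background in esophagus alone, at −3.99, and at least 3.45-fold over stomach. Met, the receptor that those migrating precursors carry, was −0.90 in esophagus, −0.52 in lung, −1.19 in stomach and −0.52 in intestine. Myf6, the late member of the Myod1 family, was well above background in intestine alone, at −6.06, and not in esophagus, at −6.03.

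Regulators of head and branchiomeric muscle split. Of 5 genes, 3 were at least 2-fold higher in esophagus than in stomach and 2 at least 2-fold lower, where 4.27% of all genes were that much lower. Tbx1, a T-box factor of pharyngeal mesoderm and endoderm, was 3.66 in esophagus, 2.48 in lung, −0.88 in stomach and −1.40 in intestine, 23.1-fold over stomach. Lhx2 was 3.44-fold and Msc 2.36-fold higher in esophagus than in stomach. Lower in esophagus than in stomach were Isl1, at 0.36 against 2.13, and Tcf21, at 1.11 against 2.29, both of which are also known outside muscle in gut mesenchyme. Over lung, 3 of the 5 were at least 2-fold higher in esophagus.

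The partners and inhibitors of the Myod1 family differed little. Of 8 genes, 1 was at least 2-fold higher in esophagus than in stomach, and the same 1 over lung. It was Twist1, an inhibitor of Myod1 and a mesenchyme factor, at 1.23 in esophagus and −0.98 in stomach. The E-proteins Tcf3, Tcf4 and Tcf12, with which Myod1 and Myog pair, and the inhibitors Id1, Id2 and Id3 were all well above background on all 4 arrays. Their esophagus levels stood between 0.70-fold and 1.17-fold of the stomach levels.

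Contractile genes beyond the members formed the longest list. Of 33 other sarcomere and myofibril genes with a fold, 25 were at least 2-fold higher in esophagus than in stomach, and the median difference was 2.24. Over lung the count was 15 of 24 with a fold, against 9.42% of all genes, and over intestine 27 of 33, against 11.9%. Tnnc2, the fast skeletal troponin C, was 0.72 in esophagus and −3.99 in stomach, 26.2-fold apart. Mylpf, the fast skeletal regulatory light chain, was 4.73-fold over stomach and Tnni1, the slow skeletal troponin I, 9.26-fold. Of the fast troponins, Tnni2 was 0.03 in esophagus against 0.78 in stomach, and Tnnt3 was −2.38 against −2.91. Several of the highest folds belong to genes known also from heart, among them Tnnc1 at 81.6-fold and Myl4 at 59.3-fold over stomach.

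Fusion and cell surface genes were mixed, with 3 of 8 at least 2-fold higher in esophagus than in stomach and 2 of 7 over lung. Cdh15, the M-cadherin of myoblasts, was 6.48-fold over stomach, and Cav3, the muscle caveolin, at least 14.7-fold. Mymk, the membrane activator of myoblast fusion, was −2.20 in esophagus, −1.78 in stomach and −1.49 in intestine. Of 17 genes of the neuromuscular junction and of excitation-contraction coupling, 9 were at least 2-fold higher than in stomach. Over lung, 2 of 9 with a fold were. The fetal acetylcholine receptor subunit Chrng was seen in esophagus alone, at −1.08 and at least 25.9-fold over stomach, and its partner Chrna1 was at least 13.01-fold over stomach. Musk, the receptor kinase of the junction, was seen on no array. Of 5 genes of muscle energy metabolism, 4 were at least 2-fold higher than in stomach, and over lung 2 of 4 with a fold were. Ckm, the muscle creatine kinase, was not well above background anywhere.

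**Figure D3:**
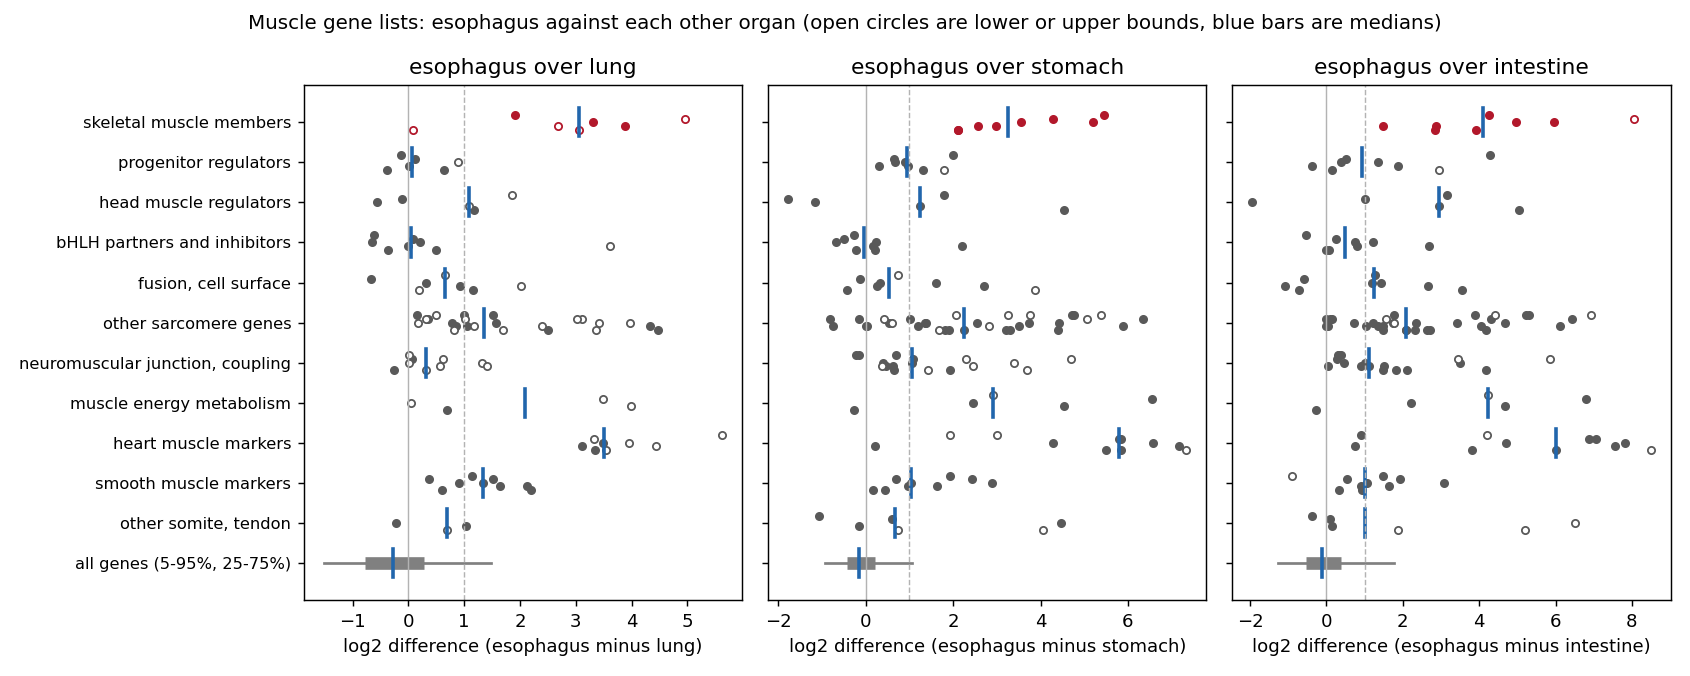
Log2 difference between esophagus and lung, stomach and intestine for each gene of each list, with the skeletal muscle members in the top row. Circles are genes (open where 1 array was not well above background, so that the value is a bound), blue bars are medians, dashed lines mark 2-fold, and the bottom row gives the central 50% and 90% of all genes. The members' medians of 3.05, 3.27 and 4.09 lie right of the 95th percentile of single genes, at 1.48, 1.06 and 1.77. The medians of heart muscle markers and of muscle energy metabolism lie right of it too in every panel. Not every heart marker does, as Nppb at 0.22 over stomach shows.

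Markers of other muscle types were also high on the esophagus array. Of 11 heart muscle markers, 11 were well above background in esophagus, 3 in lung, 8 in stomach and 9 in intestine, and 10 were at least 2-fold higher in esophagus than in stomach. Over lung 8 of 8 with a fold were, against 9.42% of all genes, and over intestine 9 of 11, against 11.9%. The median log2 difference of the heart list was 3.51 over lung, 5.79 over stomach and 6.02 over intestine. Each was above the members' median, which was 3.05, 3.27 and 4.09 in the same order. Nppb, Myl2 and Ryr2 had no fold over lung, because their esophagus levels lay below the lowest level that the lung array resolved. The summed level of the heart list, in multiples of the array's 75th percentile, was 102 in esophagus, 8.46 in lung, 1.83 in stomach and 1.05 in intestine. The sum adds probes as they stand, seen or not, and serves only to set organs side by side within the list. Myl7 alone made up 66.7 of the esophagus sum, and without each array's highest gene the sums were 35.7 in esophagus, 2.51 in lung, 0.66 in stomach and 0.55 in intestine. The heart light chain Myl7 was 6.06 in esophagus and 0.23 in stomach, and the atrial hormone gene Nppa 1.15 and −4.34. Acta1, Apobec2, Tnnt1 and Myl1 are known also from the developing heart, while Myog, Myod1 and Pax7 are not known as heart genes. What part heart tissue had in the members' levels was not tested.

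Smooth muscle markers were less far apart, with 5 of 9 at least 2-fold higher in esophagus than in stomach and a median difference of 1.03. Over lung, 6 of 9 were, against 9.42% of all genes, with a median difference of 1.34 against −0.28 for all genes. Their summed level was 169 in esophagus, 58.5 in lung, 84.4 in stomach and 77.4 in intestine. Markers of other somite derivatives and tendon, which could come with somitic tissue, counted 2 higher and 1 lower of 6 against stomach. Of all genes 5.63% were higher and 4.27% lower. Pax1, of the sclerotome and pharyngeal pouches, was seen in esophagus alone, at −1.71, and Tbx18 was −0.42 in esophagus and −4.89 in stomach. Scx, the tendon factor, was 2.38 in esophagus and 1.79 in stomach. Over lung, 1 of 3 of these markers with a fold was at least 2-fold higher. The part of these tissues in the members' levels was not tested either.

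Genes with the pattern over the 4 arrays most like that of Myog and of Myl1 were found by the distance between their levels after each gene's mean was removed, over 13379 candidates. For Myog they were Tnnt2, Ankrd1 and Nppa, at distances of 0.65, 0.66 and 0.68 log2 units, where the median candidate was at 4.80. For Myl1 they were Pgam2 and Actc1, both at 1.19, and Unc45b at 1.36, where the median was 4.62. Tnnt2 and Nppa are on the list of heart muscle markers, while Ankrd1 is on none of the lists and was not classed here. Actc1 and Unc45b are on the list of other sarcomere and myofibril genes, and Pgam2 is on that of muscle energy metabolism. Ankrd1, Nppa, Pgam2 and Unc45b were not well above background in lung, and Ankrd1 was not in stomach either. Myog and Myl1 themselves were not well above background in lung, so the lowest level that array resolved stood in for them there. With 4 points from 4 arrays such likeness is a description of these arrays.

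Promoters of 9 of the 10 members were in the RefSeq table, and Myod1 was not among them. The start used by the table was the outer end of the gene for 5 of the 9 and another base for Pax7, Myf5, Myh3 and Myl1. An E-box, CANNTG on either strand, was present in 7 of the 9, and 72.3% of 32851 promoters of the same length hold one. CAGCTG, the form of the E-box found in Apobec2 at −23, Acta1 at −221 and Myl1 at −224 relative to the start, is counted within CANNTG, and 16.3% of promoters hold it. In the printed Myog promoter the E-boxes begin at −138 and −12. Pax7 and Myf5 had no CANNTG in this window.

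TATAAA on either strand was present in 7 of the 9 promoters, against 13.6% of all. Between −40 and −20 it was present in 3, Apobec2, Myh3 and Tnnt1, against 2.5% of all. The MEF2 box, which Mef2 factors bind, was found in Myh8 alone, at −99, where it overlaps TATAAA on the other strand, and 3.19% of promoters hold it. The CArG box, which serum response factor binds, was found in Acta1 alone, at −73, against 1.63%. A match is a string in a window and does not show that a factor binds there.

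**Figure D4:**
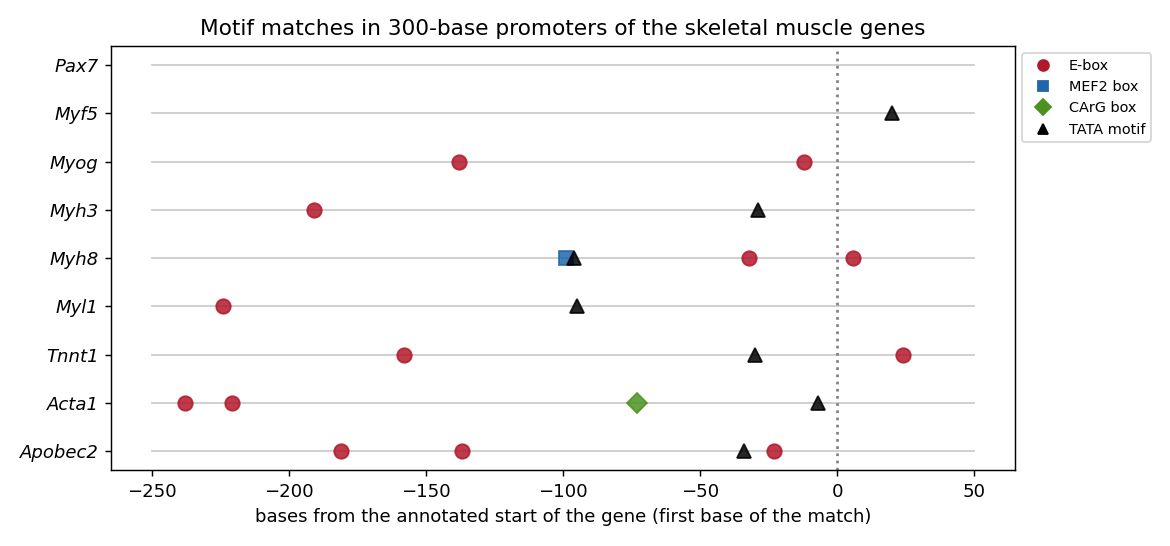
Motif matches in the 300-base promoters of the 9 skeletal muscle genes in the RefSeq table, by distance in bases from the annotated start. Circles are E-boxes (CANNTG), the square is the MEF2 box, the diamond the CArG box and triangles are TATAAA, and 3 triangles lie between −40 and −20.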

How the data were processed

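Total RNA of 4 organ primordia was hybridised to 1 Agilent one-colour array each, after isolation with an RNeasy micro kit and Cy3 labelling with a low-input amplification kit, per the labels' protocols. The array design, 014868, refers to mm8, and the images were quantified by Feature Extraction 10.5.1.1 (protocol GE1_105_Dec08), per the file headers. Each deposited processed signal is the linear intensity of a spot after that software subtracted background, unscaled between arrays. The authors' deposited value table holds log2 values that matched the levels computed here (r of 0.99996 to 0.99998), and it served as an alternative.

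The level used here leaves out spots flagged as feature outliers, averages the copies of each probe in log2, and subtracts the 75th percentile over all probes other than controls on that array. Of 41105 probes kept, 24338 (59.2%) had 1 symbol in the RefSeq table of GRCm38.p6, which was used for names. A gene's level is that of its brightest probe. A probe with copies was well above background where most of its spots were. With 1 array per organ no test was possible, and 2-fold and 4-fold are sizes. The number of arrays limits precision. The members, the 11 lists and the rule for named genes were chosen with earlier results of these data known. Some list genes are not reported here and are not in the lists' counts. Named were all members with every probe, list genes, and the 3 genes nearest to Myog and to Myl1 (Euclidean distance of centred levels, with levels floored as above). Sequences are from RefSeq (GRCm38.p6).

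Alternatives covered background correction, centring, scaling, filters, floors and probe choice. The normexp alternative (limma 3.58.1 in R 4.3.3, offset 50) used median spot and background signals. Python 3.11.15, numpy 2.4.6 and pandas 2.3.3 did the rest, and the counting was tested on simulated data.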

Additional observations from a re-analysis of the deposited data

How the results depend on the processing

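Each log2 difference that the report gives between esophagus and another organ for a member was positive under the 11 alternatives that gave it a value. Where the other array did not see the gene, a bound that would be negative gives no value, so the sign of such bounds was fixed by the rule. Myod1 over lung had no value for this reason under normexp correction, median centring and quantile normalization. Restricted to genes well above background on all 4 arrays, 2 members had a value, Tnnt1 and Apobec2, and the count at least 2-fold higher in esophagus was 2 over lung, 2 over stomach, 2 over intestine and 2 above every other organ, since fewer genes had a value. Of all genes under that restriction 6.49%, 3.39%, 7.21% and 0.769% were, in the same order. Under the other alternatives the counts were 5 to 8 over lung, 6 to 8 over stomach, 6 to 9 over intestine and 5 to 8 above every other organ. The shares of all genes there were 4.54% to 14.7% over lung, 1.99% to 6.59% over stomach and 6.72% to 18.3% over intestine. Above every other organ they were 0.572% to 3.97%, the highest with the lung array left out. The 9 over intestine, without filter or floor, counts Myf5, which no array saw. Normexp correction ended the 2-fold difference of Pax7 and Myod1 over stomach and of Myog over lung, with the values given in the report. Without filter or floor, Myod1, Myog and Myl1 were 1.78, 4.47 and 5.68 (log2) over lung. Quantile normalization gave Pax7, Myod1 and Myh8 2.02, 2.10 and 7.38 over intestine. Leaving out spots with background outlier flags, chosen after seeing the data, removed Tnnt1. Scaling moved the median of all genes for esophagus minus lung to −0.91 under median centring, 0.04 under a percentile of bright probes and 0.21 under normexp, against −0.28 in the report, where the members' medians were 2.60, 3.17 and 1.89 against 3.05. The lung array's low signal limits every comparison with lung. No paired analysis was possible because each organ had 1 array.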
